A study of Mus musculus with 30 samples.

Results

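The comparison described here is the response of tumours of the melanoma clone 14559TN to combined RAF and MEK inhibition. It rests on 6 of the 30 libraries of the study, chosen by their titles and clone labels: 3 tumours given RAFi/MEKi (called treated tumours) and 3 untreated tumours. All 6 tumours were grown under the skin from YUMM1.7 cells, a mouse melanoma line of the C57BL/6 strain and each library came from a separate tumour. Whether tumours of a group came from separate mice is not stated. The titles carry an unexplained letter, L for all 3 treated tumours and R, L and R for the untreated ones, and its part in the differences was not tested. YUMM1.7 is known to carry an activating Braf mutation together with loss of Cdkn2a, so both groups share these changes. The study held 5 such clones with and without RAFi/MEKi, 3 tumours in each of 10 groups, and 3 of the other clones (13TN, 14559R and 2646TN) are used below as points of reference. Clones had been picked from a barcoded population with CaTCH, so each clone label stands for 1 isolate and no spread between clones enters a test. Cancer cells were recognised in the sorter by their GFP signal after staining for the immune marker CD45 and for dead cells. The inhibitors are known from the labels only as RAFi/MEKi, and their names, doses and days of treatment are not given in the sources used here.

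RAF, MEK and ERK form a kinase relay that in BRAF-mutant melanoma runs without a growth factor. Active ERK switches on transcription factors of the ETS and AP-1 families and cyclin D1, and it also induces its own brakes, the DUSP phosphatases and the Sprouty and Spred proteins. Cyclin D with CDK4 or CDK6 releases E2F, which drives the genes of DNA replication, and the genes of mitosis follow later in the cycle. Interferons act through JAK kinases on STAT factors and IRF9, which bind response elements in front of antiviral and antigen presentation genes. Sterol synthesis genes are switched on by SREBP2 when cells run short of cholesterol.

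Levels are given as CPM, a gene's read count scaled to a common library size with trimmed-mean (TMM) factors, and values of single tumours are given in the order of replicates 1, 2 and 3. A log2 fold change is treated over untreated and is followed by its standard error. A gene was called higher or lower at a Benjamini-Hochberg adjusted p under 0.05 in edgeR's quasi-likelihood test over 13286 genes. Depth was 3287743 to 4620473 counts per library. A principal component analysis of the 6 libraries used only the 1000 genes that varied most among them. Its shares therefore do not describe all 13286 genes. On axis 1, with 82.4% of the variance in those 1000 genes, treated tumours lay at 36.5 to 38.0 and untreated tumours at -38.5 to -35.9. Axis 2, with 6.07%, separated treated replicate 1, at -19.6, from treated replicates 2 and 3, at 13.4 and 6.12. For this reason counts of called genes were also computed without each library. Neutrophil, lymphocyte and fat cell markers were at or near 0. The summed neutrophil markers, for example, lay between 1.42 and 1.71 CPM in treated and between 1.02 and 2.27 CPM in untreated tumours. The 10 keratinocyte markers summed to 16.5, 24.4 and 15.7 CPM in treated and 24.4, 16.0 and 21.2 CPM in untreated tumours, and 6 of them, Krt5, Krt14 and Epcam included, had no count. The 2 that were tested overlapped between the groups. Of 18 pigment lineage genes 9 had no count in the 6 libraries, among them Tyr, Tyrp1, Dct and Mlana, usual markers of melanoma. The labelled cell type is not borne out by these markers. The 18 together summed to 457 ± 45.9 CPM in treated and 343 ± 15.8 CPM in untreated tumours (SD, n = 3 each). The 13 neural crest and glial genes summed to 6043 ± 244 and 8461 ± 784 CPM, most of it from Aqp1. The lineage factor Mitf was present, at 61.0, 67.9 and 64.3 CPM in treated tumours, against 52.5, 51.0 and 51.2 CPM in untreated tumours, and was not called, and the melanoblast factor Pax3 was called higher (0.61 ± 0.16, adjusted p = 0.00400).

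Promoter letters of 5 genes are shown because they carry motifs known from the pathways that moved most in these tumours. Each run is the 150 bases before the RefSeq start of the gene in GRCm38.p6, read 5′ to 3′ on the strand of the gene, and matches on either strand of the motifs named for that gene are in capitals. Ifit1 (chr19:34640739-34640888, plus strand) and Isg15 (chr4:156200819-156200968, minus strand) are interferon-induced genes, and their capitals mark 2 GAAA half-sites with any 2 bases between them, the core of the interferon-stimulated response element. The Isg15 run holds 3 overlapping matches of it and the Ifit1 run holds 2. Mcm6 (chr1:128359706-128359855, minus strand) encodes a subunit of the replicative helicase, was picked after its values were seen, and has 2 copies of the E2F site TTTGGCGC in capitals. Top2a (chr11:99024190-99024339, minus strand) encodes the mitotic topoisomerase, with 1 cell-cycle homology element TTTGAA and 4 CCAAT boxes in capitals. Hmgcs1 (chr13:119690201-119690350, plus strand) encodes the synthase that opens the sterol pathway, with 1 sterol regulatory element TCACNCCAC and 1 CCAAT box in capitals.
Ifit1: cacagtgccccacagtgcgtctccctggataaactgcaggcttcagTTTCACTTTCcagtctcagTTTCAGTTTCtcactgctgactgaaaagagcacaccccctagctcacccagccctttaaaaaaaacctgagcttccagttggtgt
Isg15: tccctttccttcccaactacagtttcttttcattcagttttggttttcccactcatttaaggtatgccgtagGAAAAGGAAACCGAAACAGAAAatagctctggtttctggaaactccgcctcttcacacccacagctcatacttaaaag
Mcm6: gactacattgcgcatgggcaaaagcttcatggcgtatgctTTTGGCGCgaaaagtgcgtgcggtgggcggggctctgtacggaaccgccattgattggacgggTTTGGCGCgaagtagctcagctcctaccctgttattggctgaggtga
Top2a: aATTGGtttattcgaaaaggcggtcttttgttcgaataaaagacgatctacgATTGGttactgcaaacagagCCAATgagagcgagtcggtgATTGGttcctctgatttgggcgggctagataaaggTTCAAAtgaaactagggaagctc
Hmgcs1: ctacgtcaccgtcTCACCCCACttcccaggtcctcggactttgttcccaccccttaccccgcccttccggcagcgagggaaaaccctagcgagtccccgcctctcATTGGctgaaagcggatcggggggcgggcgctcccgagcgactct

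The same letters were counted in RefSeq windows of 250 bases before and 50 bases after each gene start, for 27025 gene symbols, of which a symbol counted once if any of its windows held a match. This response element core stood in 4.0% of all symbols, in 11 of the 22 matched type I interferon-induced genes and in 9 of the 10 matched interferon-induced GTPase genes (90.0%). TTTGGCGC stood in 0.6% of all symbols and in 6 of 28 matched DNA replication genes (21.4%). TTTGAA stood in 20.2% of all symbols and in 26 of 34 matched mitosis genes (76.5%), and CCAAT in 41.1% of all symbols, in 27 of those 34 (79.4%) and in 14 of 15 matched sterol synthesis genes (93.3%). TCACNCCAC stood in 1.4% of all symbols and in 1 of those 15 (6.7%). The motifs were not confined to these pairs. TTTGGCGC also stood in 2 of 11 matched antigen processing genes (18.2%), and TTTGAA in 5 of 10 matched interferon-induced GTPase genes. The response element core stood in 4 of 15 matched Fanconi and recombination repair genes (26.7%). Other pairs had no match, such as the core in 28 DNA replication genes and TTTGGCGC in 34 mitosis genes. Matches of different motifs may overlap and were counted separately, and these shares describe letters only.

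Treated and untreated 14559TN tumours differed in a large part of the transcriptome. Of 13286 genes, 1647 were called higher (12.4%) and 2124 lower (16%), and of these 850 (6.4%) were at least doubled and 913 (6.87%) at least halved. These shares are the background for each list below. For 22.9% of genes all 3 treated libraries lay above all 3 untreated ones, and for 24.5% all 3 lay below. In bulk RNA of sorted cells, fewer cells of a kind and less RNA per cell cannot be told apart. Among 39 pathway lists with at least 10 tested members, the lowest medians belonged to mitosis (-3.00 on the log2 scale), Fanconi and recombination repair (-1.81), sterol synthesis (-1.71) and DNA replication (-1.67). The highest belonged to the interferon-induced GTPases (3.02), type I interferon-induced genes (2.98), chemokines (1.90) and smooth muscle contractile genes (1.76), beside a median of 0 over all tested genes.

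**Figure D1:**
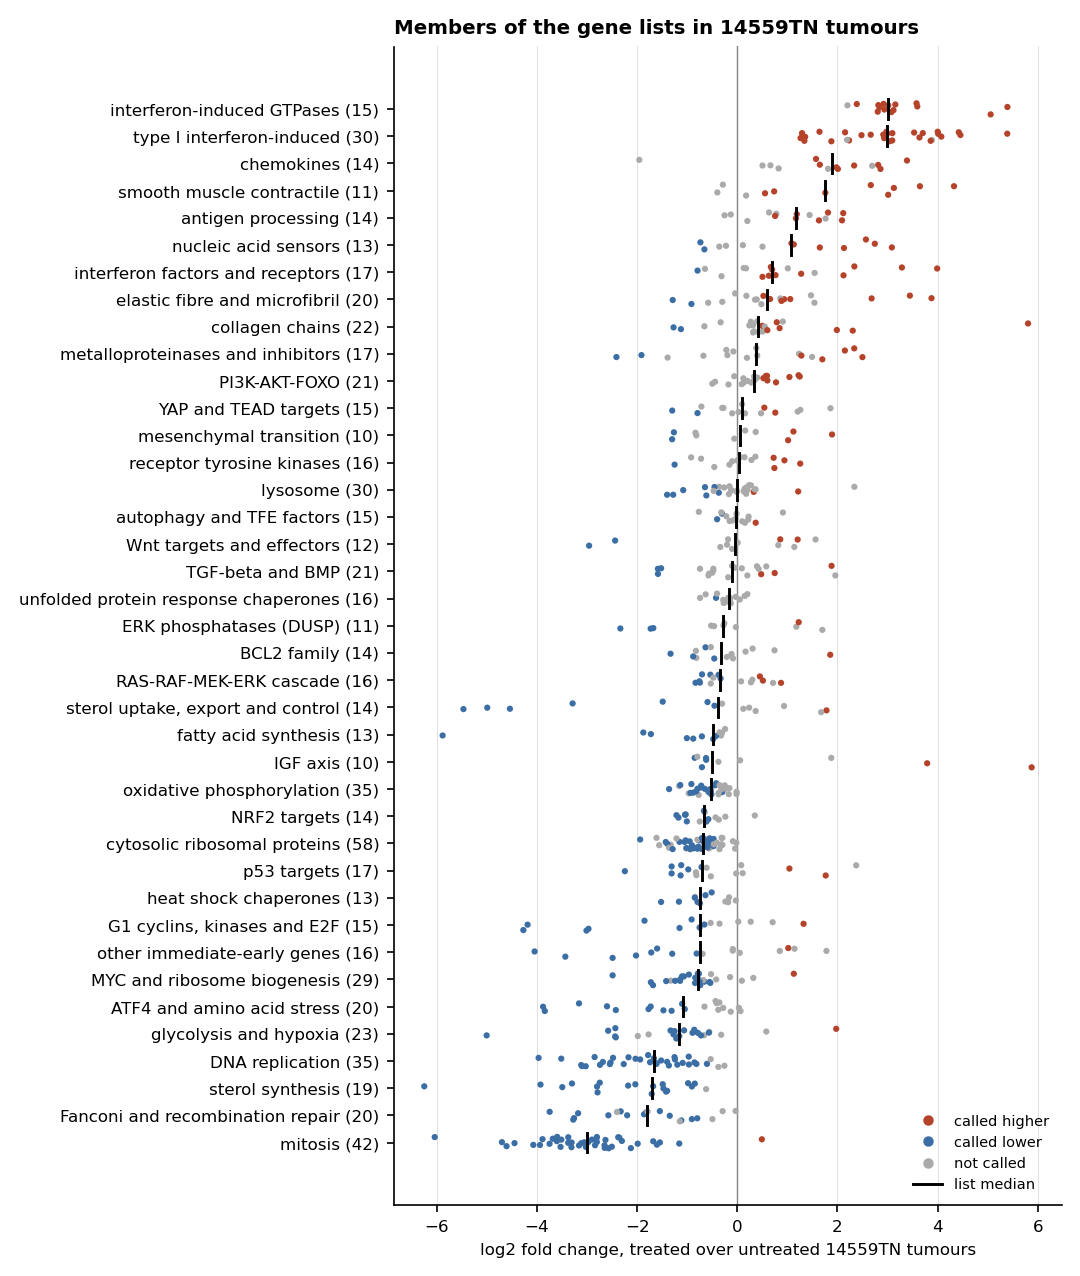
Log2 fold change (x axis, treated over untreated 14559TN tumours, 3 tumours each) of each tested member of 39 pathway lists (y axis, number of tested members in brackets, ordered by median). Each point is 1 gene, red where called higher, blue where called lower and grey where not called, and the black bar is the list median. The mitosis points lie almost wholly below 0 and the type I interferon-induced points wholly above it.

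Genes directly downstream of ERK did not move as 1 block. The PEA3-type ETS factors Etv4 and Etv5 and the AP-1 partner Fosl1 (FRA1) were called lower, while most feedback brakes were not. Etv4 stood at 9.94, 12.7 and 4.86 CPM in treated tumours, against 111, 107 and 122 CPM in untreated tumours (-3.59 ± 0.35, adjusted p = 3.43e-08). All 3 treated tumours were far below the untreated ones. Etv5 had 27.3, 21.3 and 15.1 CPM in treated tumours, against 44.9, 52.2 and 37.8 CPM in untreated tumours (-1.08 ± 0.22, adjusted p = 3.64e-04), and Fosl1 had 5.96, 7.10 and 3.43 CPM in treated tumours, against 48.0, 36.6 and 59.0 CPM in untreated tumours (-3.09 ± 0.39, adjusted p = 2.30e-06). Neither overlapped between the groups. Of 8 ETS factors tested 4 were called lower and none higher, the other called members being Elk3 (-0.44 ± 0.12, a call lost with no low-count filter) and Ets2 (-0.69 ± 0.19). Dusp6, the ERK-specific phosphatase often read as a gauge of ERK output, had 31.8, 127 and 101 CPM in treated tumours, against 75.9, 81.1 and 109 CPM in untreated tumours and was not called (-0.03 ± 0.44). The treated values spread on both sides of the untreated ones, with treated replicate 1 the lowest of the 6. Of 11 DUSP genes 3 were called lower, a count that fell to 1 without untreated replicate 2, untreated replicate 3, treated replicate 1 or treated replicate 3, and 1 was called higher, Dusp16 (1.23 ± 0.25, adjusted p = 3.66e-04), a phosphatase of JNK and p38. Spry2, an inhibitor of receptor signalling to RAS, was called higher, with 135, 178 and 117 CPM in treated tumours, against 75.6, 62.7 and 80.9 CPM in untreated tumours (0.97 ± 0.15, adjusted p = 5.66e-06). Its relative Spred3 was called lower (-0.98 ± 0.24, adjusted p = 0.00218), and the other 4 tested members of that family were not called.

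Immediate-early genes showed the same mixture. Of 16 tested outside AP-1, 8 were called lower, 5 without untreated replicate 3 and 3 without treated replicate 1, and Egr1 alone was higher. The urokinase receptor Plaur, one of the 12 largest falls, had 1.99, 0.627 and 1.43 CPM in treated tumours, against 22.3, 18.4 and 24.2 CPM in untreated tumours (-4.05 ± 0.43, adjusted p = 1.09e-08). The EGF receptor ligands Hbegf (-2.02 ± 0.39, adjusted p = 3.98e-04) and Ereg (-1.72 ± 0.26, adjusted p = 1.27e-05) were also lower. Of 7 AP-1 genes 2 were called in each direction, and none higher with only the 2 groups compared. Fos had 49.4, 202 and 109 CPM in treated tumours, against 42.1, 37.8 and 34.0 CPM in untreated tumours, with treated replicate 2 highest and treated replicate 1 close to the untreated range. Fos and Fosb were called higher in the fit of all libraries (1.67 ± 0.48 and 1.31 ± 0.43). Their calls were lost without treated replicate 2 (adjusted p = 0.12 and 0.20) and without untreated replicate 3 (adjusted p = 0.054 and 0.066), and Fosb also without untreated replicate 2 (adjusted p = 0.093). With only the 2 groups compared, the calls of Fos, Fosb and Egr1 were lost (adjusted p = 0.088, 0.083 and 0.18). The call of Egr1 (1.02 ± 0.37) was lost without each library except treated replicate 1, with an adjusted p of 0.36 without treated replicate 2. Dissociation stress genes, which overlap these, summed to 681, 1834 and 1117 CPM in treated and 920.2, 1064 and 1094 CPM in untreated tumours, with 3 of 14 called higher, or 1 with only the 2 groups compared or without untreated replicate 2 and 0 without untreated replicate 3 or treated replicate 2. Treated replicate 1 was the lowest and treated replicate 2 the highest of the 6 in that sum, and the part of dissociation in these values was not tested.

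Genes of the relay's own kinases changed by small amounts. Of 16 RAS-RAF-MEK-ERK cascade genes 7 were called lower, or 4 without untreated replicate 1 or untreated replicate 3, and 3 higher, with log2 changes between -1 and 1. Braf had 126, 99.9 and 117 CPM in treated and 84.5, 83.0 and 82.7 CPM in untreated tumours (0.45 ± 0.14, adjusted p = 0.015, and 0.076 without treated replicate 1 and 0.052 with no low-count filter), and Araf was also called higher (0.51 ± 0.15, adjusted p = 0.00834). Among 16 receptor tyrosine kinase genes tested 4 were called higher, or 2 without untreated replicate 3, and 1 lower. Fgfr1, a fibroblast growth factor receptor, had 482, 681 and 552 CPM in treated tumours, against 368, 304 and 355 CPM in untreated tumours (0.74 ± 0.20, adjusted p = 0.00669). Met, the hepatocyte growth factor receptor, was the member called lower (-1.25 ± 0.32, adjusted p = 0.00341). Of 21 genes of the PI3K, AKT and FOXO branch 8 were called higher, or 5 without untreated replicate 3, and none lower. Pik3r1, the regulatory subunit of PI3K, had 556, 408 and 479 CPM in treated tumours, against 191, 221 and 197 CPM in untreated tumours (1.25 ± 0.20, adjusted p = 2.49e-05), and the transcription factor gene Foxo3 was also higher (0.57 ± 0.16, adjusted p = 0.00570).

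Most cell division genes were lower in treated tumours, from cyclin D1 to the genes of mitosis. Ccnd1, the cyclin that links ERK to the cell cycle, had 768, 678 and 542 CPM in treated tumours, against 2407, 2194 and 2579 CPM in untreated tumours (-1.85 ± 0.19, adjusted p = 7.82e-09). Ccnd3, another D cyclin, moved the other way, with 307, 295 and 339 CPM in treated tumours, against 119, 129 and 128 CPM in untreated tumours (1.32 ± 0.24, adjusted p = 1.12e-04). Of 15 genes of G1 cyclins, their kinases and E2F factors, 9 were called lower, Ccnd3 alone higher. Among the CDK inhibitors and pocket proteins the members split. The p27 gene Cdkn1b (0.55 ± 0.15, adjusted p = 0.00528) and the p18 gene Cdkn2c (1.08 ± 0.18, adjusted p = 2.33e-05) were called higher, whereas the p21 gene Cdkn1a was called lower, with 53.1, 60.0 and 48.0 CPM in treated tumours, against 209, 341 and 217 CPM in untreated tumours (-2.25 ± 0.33, adjusted p = 2.16e-05). Cdkn2c stood at 162, 159 and 158 CPM in treated and 76.1, 76.8 and 73.1 CPM in untreated tumours, with hardly any spread in either group. Rbl1, the p107 pocket protein gene induced by E2F, was called lower (-1.21 ± 0.31, adjusted p = 0.00327), and Rbl2, the p130 gene, was called higher (0.57 ± 0.19), though not without untreated replicate 1, untreated replicate 2 or treated replicate 2 (adjusted p = 0.066, 0.081 and 0.10).

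DNA replication genes followed the same direction, with 32 of 35 called lower and none higher. Their summed level was 574, 463 and 504 CPM in treated tumours, against 1234, 1476 and 1650.3 CPM in untreated tumours. Mcm6, whose promoter letters are shown above, had 8.23, 10.7 and 6.28 CPM in treated tumours, against 66.2, 58.7 and 83.7 CPM in untreated tumours (-3.03 ± 0.25, adjusted p = 1.26e-10). Among the members with the highest CPM, the ligase Lig1 (-1.20 ± 0.25, adjusted p = 7.18e-04), the helicase subunit Mcm7 (-1.25 ± 0.21, adjusted p = 3.76e-05), the maintenance methyltransferase Dnmt1 (-1.37 ± 0.18, adjusted p = 8.46e-07) and the ribonucleotide reductase subunit Rrm1 (-1.78 ± 0.18, adjusted p = 4.51e-09) were all lower. The other reductase subunit, Rrm2, which rises in S phase, had 3.41, 2.51 and 1.71 CPM in treated and 12.7, 12.9 and 19.2 CPM in untreated tumours (-2.54 ± 0.35, adjusted p = 1.18e-06). Of 20 Fanconi and homologous recombination repair genes 14 were called lower and none higher.

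Mitosis genes showed the lowest median of the 39 lists, with 41 of 42 called lower. Their sums were 465, 388 and 352 CPM in treated tumours, against 1732, 1802 and 2069.8 CPM in untreated tumours. Top2a had 80.6, 48.5 and 37.1 CPM in treated tumours, against 248, 292 and 322 CPM in untreated tumours (-2.38 ± 0.26, adjusted p = 1.24e-07), with treated replicate 1 the least reduced. Cdk1, the kinase that starts mitosis, had 27.5, 44.1 and 33.4 CPM in treated tumours, against 81.5, 59.6 and 94.5 CPM in untreated tumours (-1.16 ± 0.23, adjusted p = 3.61e-04). Here treated replicate 2 was the highest of the treated tumours. Ccnb2, a mitotic cyclin among the 12 largest falls, had 4.83, 1.67 and 1.43 CPM in treated tumours, against 41.6, 30.7 and 58.2 CPM in untreated tumours (-4.07 ± 0.35, adjusted p = 4.52e-10). The spindle genes Hmmr (-4.45 ± 0.37, adjusted p = 1.26e-10), Ska1 (-4.20 ± 0.32, adjusted p = 2.39e-11) and Ttk (-3.89 ± 0.38, adjusted p = 4.51e-09) were among the same 12. Cenpf, a kinetochore protein gene, fell by less than these (-3.38 ± 0.22, adjusted p = 1.33e-12). The exception was Pttg1 (securin), called higher with 132, 123 and 111 CPM in treated tumours, against 91.1, 83.0 and 86.7 CPM in untreated tumours (0.49 ± 0.15, adjusted p = 0.010). Without treated replicate 1 the log2 fold change of Ccnb2 was -4.76.

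**Figure D2:**
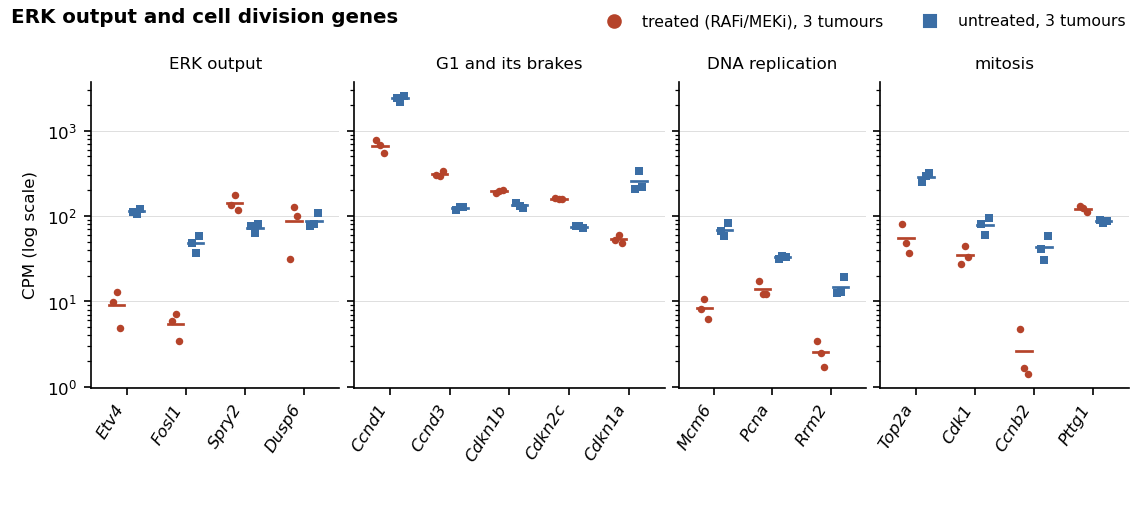
CPM on a log scale (y axis) of genes of ERK output, G1 control, DNA replication and mitosis (x axis) in 14559TN tumours. Red circles are the 3 treated tumours, blue squares the 3 untreated tumours, and bars the group means. Etv4, Ccnd1 and Top2a lie lower in treated tumours without overlap, Dusp6 overlaps, and Ccnd3, Cdkn2c and Pttg1 lie higher.

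Genes of sterol synthesis were lower as a group. Of 19 tested 18 were called lower and none higher, with sums of 251, 232 and 199 CPM in treated tumours, against 1054, 794 and 978 CPM in untreated tumours. Hmgcs1 had 38.0, 42.2 and 38.3 CPM in treated tumours, against 192, 151 and 195 CPM in untreated tumours (-2.18 ± 0.23, adjusted p = 2.80e-08), close together within each group. Cyp51, which removes a methyl group of lanosterol, had 13.1, 13.6 and 10.3 CPM in treated tumours, against 133, 105 and 128 CPM in untreated tumours (-3.30 ± 0.26, adjusted p = 3.04e-10). Msmo1, a sterol methyl oxidase, had 15.0, 6.27 and 11.1 CPM in treated and 131, 94.0 and 133 CPM in untreated tumours (-3.49 ± 0.33, adjusted p = 2.82e-08), and Fdps, which makes farnesyl diphosphate, had 0.852, 1.67 and 1.43 CPM in treated and 24.9, 15.1 and 22.7 CPM in untreated tumours (-3.93 ± 0.49, adjusted p = 3.86e-07). The fall of Fdps was among the 12 largest. The isomerase Ebp changed less (-0.98 ± 0.19, adjusted p = 1.48e-04). The sterol carrier Stard4 was also among the 12 largest falls (-4.54 ± 0.44, adjusted p = 1.95e-09). Abca1, the pump that exports cholesterol, went the other way, with 113, 131 and 137 CPM in treated tumours, against 35.3, 43.0 and 32.8 CPM in untreated tumours (1.78 ± 0.30, adjusted p = 7.30e-05). Srebf2, which encodes SREBP2 itself, was lower by a smaller amount (-1.49 ± 0.19, adjusted p = 5.05e-07). Of 14 uptake, export and control genes 7 were called lower in all, or 4 without treated replicate 2 or treated replicate 3. Fatty acid synthesis genes were called lower in 8 of 13 cases, among them the desaturase Scd1 (-1.01 ± 0.19, adjusted p = 1.19e-04) and the citrate lyase Acly (-0.88 ± 0.17, adjusted p = 1.52e-04).

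Interferon-induced genes were higher together in treated tumours. Of 30 type I interferon-induced genes tested 28 were called higher and none lower, and in all 30 the 3 treated tumours lay above the 3 untreated ones. They summed to 2998, 2944 and 2803 CPM in treated tumours, against 412, 507 and 610.4 CPM in untreated tumours. Ifit1, which binds foreign RNA ends, had 129, 188 and 179 CPM in treated tumours, against 7.87, 10.4 and 12.6 CPM in untreated tumours (4.00 ± 0.56, adjusted p = 1.55e-05). Isg15, a ubiquitin-like modifier, had 42.9, 71.0 and 55.4 CPM in treated tumours, against 5.33, 7.38 and 8.82 CPM in untreated tumours (2.98 ± 0.64, adjusted p = 0.00137). Both hold matches of the response element core in the runs printed above, and both were separated between the groups by several-fold. Ifit3 and Ifit3b, near-identical neighbours whose reads may be split between them, had log2 fold changes of 4.07 ± 0.72 and 4.01 ± 0.67. The called members with the highest CPM were Ifi27, with 326, 338 and 321 CPM in treated and 121, 132 and 137 CPM in untreated tumours (1.34 ± 0.17, adjusted p = 3.24e-07), then Ifit3, Ifi44 (3.86 ± 0.57, adjusted p = 2.76e-05) and the oligoadenylate synthetase-like gene Oasl2 (3.53 ± 0.48, adjusted p = 1.05e-05). The DNA-binding PYHIN gene Ifi213, another of the 12 largest rises, had 36.1, 25.5 and 36.6 CPM in treated tumours, against 0, 0.615 and 2.27 CPM in untreated tumours (5.01 ± 0.62, adjusted p = 2.41e-07), and its log2 fold change was 6.73 without untreated replicate 3.

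The factors that carry the interferon signal were higher too. Stat2 had 170.1, 159 and 173 CPM in treated tumours, against 33.2, 28.0 and 37.8 CPM in untreated tumours (2.34 ± 0.24, adjusted p = 2.80e-08), and its DNA-binding partner Irf9 had 237, 194 and 249 CPM in treated tumours, against 45.7, 58.1 and 52.7 CPM in untreated tumours (2.12 ± 0.26, adjusted p = 6.78e-07). Both were higher in each treated tumour than in any untreated one. Irf7, which amplifies type I interferon production, had 104, 87.3 and 73.7 CPM in treated tumours, against 3.30, 8.60 and 5.04 CPM in untreated tumours (3.99 ± 0.53, adjusted p = 6.15e-06). Irf1 (1.28 ± 0.28, adjusted p = 0.00141) and Irf2 (0.76 ± 0.14, adjusted p = 1.09e-04) were called higher. Of 17 such factors and receptors 10 were called higher, and only the interferon gamma receptor chain Ifngr2 was called lower (-0.79 ± 0.25, adjusted p = 0.018), a call lost without untreated replicate 3, treated replicate 1 or treated replicate 3 (adjusted p = 0.066, 0.080 and 0.065). Ifnb1, the gene of interferon beta itself, had no count in the 6 libraries. Of 13 sensors of viral nucleic acid 7 were called higher and 2 lower. The RNA sensors Ddx58 (RIG-I, 2.13 ± 0.28, adjusted p = 1.98e-06) and Ifih1 (MDA5, 3.09 ± 0.33, adjusted p = 9.61e-08) and the ligase Trim25 (1.08 ± 0.19, adjusted p = 4.44e-05) were higher, and the DNA sensor Cgas (-0.74 ± 0.18, adjusted p = 0.00184) and its adaptor Tmem173 (STING, -0.66 ± 0.18, adjusted p = 0.00489) were lower. The call of Tmem173 was lost without treated replicate 3 (adjusted p = 0.050).

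Interferon-induced GTPases of the Gbp and Irg families, which attack the vacuoles of intracellular parasites, were called higher in 14 of 15 cases. Their sums were 3195, 3261 and 3369 CPM in treated tumours, against 269, 377 and 693 CPM in untreated tumours. Iigp1 had 1131, 1188 and 1114 CPM in treated tumours, against 89.6, 135 and 262 CPM in untreated tumours (2.82 ± 0.63, adjusted p = 0.00198). Untreated replicate 3 was the highest of the untreated tumours here. Gbp7 (2.80 ± 0.39, adjusted p = 1.09e-05), Ifi47 (2.94 ± 0.42, adjusted p = 2.06e-05) and Gbp8, one of the 12 largest rises (5.39 ± 0.73, adjusted p = 6.12e-06), were among the others. Members of the Gbp family share sequence, and reads that fit several of them could be assigned unevenly.

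Antigen presentation and chemokine genes were higher by value but less uniformly called. The class I heavy chain H2-K1 had 860.1, 1134 and 917 CPM in treated tumours, against 235, 243 and 556 CPM in untreated tumours and was not called, and the light chain B2m had 6379.6, 7756 and 7142 CPM in treated tumours, against 3867, 3511 and 5486 CPM in untreated tumours and was not called either. B2m was called with no low-count filter (adjusted p = 4.19e-07) and with only the 2 groups compared (adjusted p = 0.00187), and H2-K1 with no low-count filter (adjusted p = 2.22e-23) and with DESeq2 (adjusted p = 0.033). Of 8 class I genes 2 were called higher in the fit of all libraries, 8 with no low-count filter, 5 with only the 2 groups compared, 4 with DESeq2, and 0 when any library other than untreated replicate 3 was left out. Class I heavy chains share sequence, and reads may be split between them. In the processing machinery 7 of 14 genes were called higher and none lower. Tapbp (tapasin), which loads peptides, had 870, 766 and 745 CPM in treated tumours, against 181, 196 and 300.3 CPM in untreated tumours (1.81 ± 0.28, adjusted p = 3.36e-05), and the immunoproteasome subunit Psmb10 (1.63 ± 0.30, adjusted p = 2.39e-04) and the activator Psme1 (0.75 ± 0.16, adjusted p = 4.81e-04) were called too. The peptide transporter Tap1 had 164, 134 and 151 CPM in treated tumours, against 26.1, 30.4 and 46.6 CPM in untreated tumours (2.12 ± 0.60, adjusted p = 0.012), a call lost without untreated replicate 1 (adjusted p = 0.053). Of 14 chemokine genes 8 were called higher, or 5, 3 and 4 without untreated replicate 1, untreated replicate 2 and treated replicate 2. Cxcl9, which draws T cells, had 256, 241 and 159.7 CPM in treated tumours, against 7.11, 11.1 and 43.9 CPM in untreated tumours (3.39 ± 0.57, adjusted p = 1.33e-04), and its log2 fold change was 4.62 without untreated replicate 3, the highest of its group. Cxcl10 was also called higher (2.81 ± 0.52, adjusted p = 3.08e-04, and a log2 fold change of 3.42 without untreated replicate 3). Class II genes were called higher in 4 of 7 cases, and in 1 or 2 without untreated replicate 1, untreated replicate 2 or treated replicate 1, and in 2 with only the 2 groups compared. Of 7 checkpoint ligand genes 1 was called lower (Pvr) and 4 were called higher, or 2 without untreated replicate 1 or treated replicate 1. Cd274 (PD-L1) was one of them, with 24.1, 20.3 and 25.7 CPM in treated tumours, against 4.06, 4.61 and 6.30 CPM in untreated tumours (2.21 ± 0.47, adjusted p = 6.23e-04), and Lgals9 (galectin-9) was another (3.18 ± 0.46, adjusted p = 1.10e-05).

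**Figure D3:**
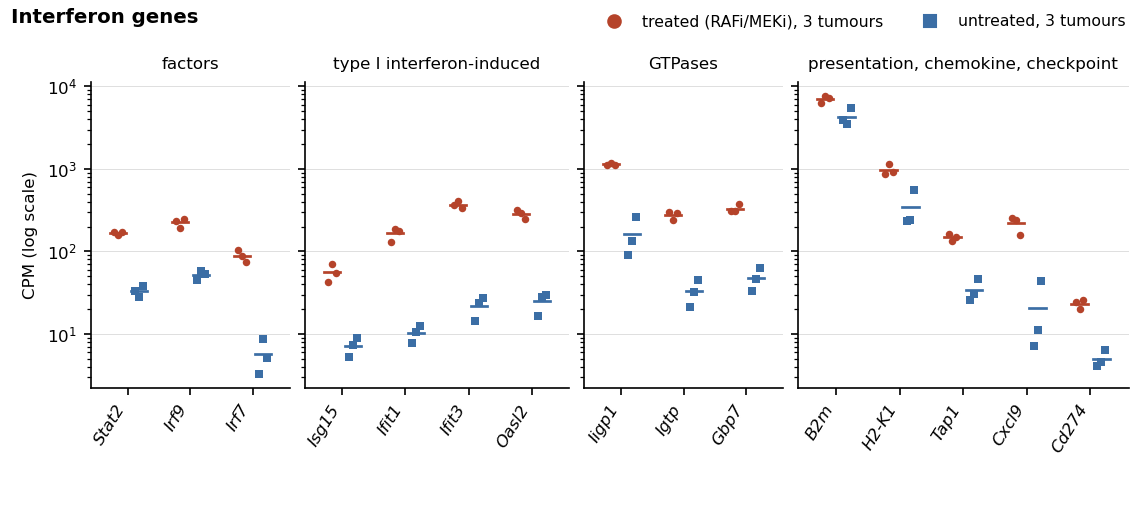
CPM on a log scale (y axis) of interferon factors, interferon-induced genes, GTPases and genes of presentation, chemokines and checkpoints (x axis) in 14559TN tumours. Red circles are the 3 treated tumours, blue squares the 3 untreated tumours, and bars the group means. No gene shown overlaps between groups, and untreated replicate 3 lies above the other untreated tumours for Iigp1, H2-K1 and Cxcl9.

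Markers of immune cells stood beside these values at low levels. The 17 macrophage markers summed to 144, 73.9 and 79.4 CPM in treated and 26.6, 57.5 and 95.5 CPM in untreated tumours, ranges that overlapped. Of 14 tested 1 was called higher (Aif1), or 2 with library totals, with DESeq2 or without treated replicate 3 and 3 with no low-count filter or without untreated replicate 3, and 1 lower (Cd14). The call of Aif1 was lost without untreated replicate 1, untreated replicate 2 or treated replicate 1 (adjusted p = 0.091, 0.052 and 0.060). That of Cd14 was lost with no low-count filter (adjusted p = 0.080) and without any library other than treated replicate 2, with an adjusted p of 0.15 without treated replicate 1. Of the defining markers, Cd163 had no count in treated tumours, Itgam had none either, and Adgre1 had 3.12, 1.46 and 0 CPM in treated and 0.254, 0.307 and 0 CPM in untreated tumours. These genes do not stand for the whole list. Its 14 tested members had a median log2 fold change of 0.48, and of 0.05 to 1.26 over the alternatives. In 2 of them all treated libraries lay above all untreated ones, and in 1 all lay below. Lymphocyte markers summed to 3.98, 1.88 and 2.00 CPM in treated and 0.254, 1.23 and 1.01 CPM in untreated tumours, and none of the 14 reached the level for testing. The part of these cells in the interferon, presentation and chemokine values was not tested.

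Contractile and matrix genes were higher in a narrower set. Of 11 smooth muscle contractile genes tested 8 were called higher and none lower. Acta2, smooth muscle actin, had 176, 124 and 99.7 CPM in treated tumours, against 8.88, 5.53 and 5.29 CPM in untreated tumours (4.33 ± 0.58, adjusted p = 8.61e-06). Myl9, a myosin light chain, had 55.4, 41.8 and 41.7 CPM in treated tumours, against 5.58, 3.07 and 2.27 CPM in untreated tumours (3.65 ± 0.46, adjusted p = 1.02e-06), and Mylk, the kinase that switches it on, had 192, 158 and 131 CPM in treated tumours, against 16.5, 20.3 and 18.4 CPM in untreated tumours (3.13 ± 0.38, adjusted p = 1.73e-06). The 3 genes act in 1 contraction pathway, and none overlapped between groups. Cald1 (0.55 ± 0.13, adjusted p = 0.00187) and Cnn2 (0.74 ± 0.18, adjusted p = 0.00187) were called with smaller changes. Pericyte markers were lower in sum, with 89.4, 75.6 and 80.0 CPM in treated and 213, 210.5 and 217 CPM in untreated tumours, most of it from Cspg4 (73.0, 54.7 and 61.4 CPM in treated and 203, 197 and 209.5 CPM in untreated tumours), and the defining markers Kcnj8 and Higd1b had no count. Of the 4 tested pericyte markers Cspg4 was called lower and Notch3 higher, the second with 11.4, 13.2 and 14.0 CPM in treated and 4.57, 7.38 and 3.53 CPM in untreated tumours (1.33 ± 0.43, adjusted p = 0.020), a call lost without untreated replicate 1, untreated replicate 3 or treated replicate 3 (adjusted p = 0.068, 0.10 and 0.053).

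Elastic fibre genes were called higher in 8 of 20 cases, or 5 without untreated replicate 3 or treated replicate 2, and lower in 2. Fbln5, which helps elastin assemble, had 143, 164 and 138 CPM in treated tumours, against 14.0, 7.38 and 8.57 CPM in untreated tumours (3.88 ± 0.50, adjusted p = 3.24e-06). Mfap4, a microfibril protein gene, was higher as well (3.45 ± 0.71, adjusted p = 8.23e-04), while the fibrillin gene Fbn2 was lower (-1.29 ± 0.26, adjusted p = 4.79e-04). Of 22 collagen chain genes 7 were called higher, or 4 without treated replicate 2, 12 with no low-count filter and 13 with only the 2 groups compared, and 2 were called lower. Col14a1, among the 12 largest rises, had 42.9, 49.1 and 34.3 CPM in treated tumours, against 1.02, 1.23 and 0 CPM in untreated tumours (5.81 ± 0.91, adjusted p = 2.88e-05), and its log2 fold change was 5.21 without untreated replicate 3. Col15a1 was also higher (2.31 ± 0.33, adjusted p = 1.30e-05), whereas Col18a1, the source of endostatin, was lower (-1.13 ± 0.12, adjusted p = 2.67e-08). Col3a1 had 3998, 5518 and 4697 CPM in treated tumours, against 2639.7, 2496 and 2777 CPM in untreated tumours (0.84 ± 0.25, adjusted p = 0.013), a call lost without treated replicate 2 (adjusted p = 0.056). Among small leucine-rich proteoglycans 5 of 8 were called higher, and 1 to 3 when any single library other than treated replicate 1 was left out. Ogn (osteoglycin) kept its call, with 102, 132 and 151 CPM in treated tumours, against 16.8, 10.1 and 13.1 CPM in untreated tumours (3.25 ± 0.49, adjusted p = 2.07e-05).

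Fibroblast markers overlap these lists and moved in part with them. They summed to 6448, 8917 and 7293 CPM in treated and 4897, 4478 and 4950.4 CPM in untreated tumours, mostly from Col3a1, and 6 of 14 were called higher, or 3 without treated replicate 2, and 1 lower. The lower one was Fap, with 12.2, 20.1 and 13.4 CPM in treated and 43.9, 35.0 and 39.3 CPM in untreated tumours. Those called higher included Col3a1, Dcn (log2 fold change 1.085, adjusted p = 0.023), Lum (1.74, adjusted p = 0.032) and Dpt. In 9 of the 14 all 3 treated libraries lay above all 3 untreated ones, and in 1 below, beside 22.9% and 24.5% of genes. The calls of Dcn and Lum were lost without untreated replicate 2 (adjusted p = 0.10 and 0.12) or treated replicate 2 (0.15 and 0.17). Pdgfra overlapped between groups, at 298, 459 and 339.9 CPM in treated and 417, 366 and 441 CPM in untreated tumours, and Clec3b and Pi16 stayed below 1 CPM in each library. The part of fibroblasts in the matrix values was not tested.

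Proteases, growth factors and lineage genes changed in both directions. Timp1, a metalloproteinase inhibitor induced by AP-1, had 110.2, 118 and 82.5 CPM in treated tumours, against 513, 605 and 538 CPM in untreated tumours (-2.41 ± 0.20, adjusted p = 4.03e-10), and the metalloproteinase Mmp3 was lower (-1.91 ± 0.45, adjusted p = 0.00276). The aggrecanases Adamts1 (1.70 ± 0.21, adjusted p = 6.65e-07) and Adamts5 (2.33 ± 0.25, adjusted p = 2.00e-08) were higher. Of 17 such genes 5 were called higher, or 3 without untreated replicate 3 and 8 with only the 2 groups compared, and 2 were called lower. Igf1, a growth factor that signals to PI3K, had 54.2, 66.0 and 46.3 CPM in treated tumours, against 2.03, 5.84 and 4.29 CPM in untreated tumours (3.79 ± 0.52, adjusted p = 3.40e-06). Pappa, a protease that frees it from binding proteins, was higher too (adjusted p = 2.16e-05), with 4.83, 7.10 and 9.43 CPM in treated and 0, 0.307 and 0 CPM in untreated tumours and a ratio of summed levels of 79.4 (95% interval 14.2 to 3135, counting error only). That ratio rests on the 1 count in untreated replicate 2, the only untreated library with any. In all, 4 of the 10 tested genes of the IGF list, 3 binding proteins and Igf2bp2, were called lower, or 2 without untreated replicate 1, treated replicate 1 or treated replicate 3. Tgfbi, a matrix protein induced by TGF-beta, was lower (-1.58 ± 0.13, adjusted p = 1.23e-10), and Bmp4 was higher (1.88 ± 0.40, adjusted p = 6.35e-04). Of 21 TGF-beta and BMP genes 3 were called in each direction, near the shares over all tested genes (12.4% higher and 16% lower). The list median was -0.10, and 6 were called higher with no low-count filter or with only the 2 groups compared. The neural crest factors Sox2 (0.91 ± 0.23, adjusted p = 0.00343) and Tfap2b (1.11 ± 0.30, adjusted p = 0.00784) were higher. The water channel Aqp1 was lower, with 4063, 4020.4 and 3412 CPM in treated tumours, against 6451, 7688 and 6864 CPM in untreated tumours (-0.87 ± 0.21, adjusted p = 0.00183). Among mesenchymal genes Prrx1 (1.12 ± 0.13, adjusted p = 6.24e-08), Zeb2 (1.01 ± 0.15, adjusted p = 5.52e-06) and Snai2 (1.89 ± 0.31, adjusted p = 2.52e-05) were higher, and Vim (-1.27 ± 0.21, adjusted p = 4.11e-05) and Fn1 (-1.30 ± 0.17, adjusted p = 7.45e-07) lower, and the other 5 of the 10 tested were not called. The Wnt effectors Tcf7l1 (1.20 ± 0.17, adjusted p = 3.36e-06) and Tcf7l2 (0.86 ± 0.18, adjusted p = 4.81e-04) were higher, and Tcf7 (-2.44 ± 0.48, adjusted p = 2.12e-04) and the Wnt inhibitor Notum (-2.96 ± 0.75, adjusted p = 0.00336) lower.

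Genes of fuel use and growth were lower. Of 23 glycolysis and hypoxia genes 16 were called lower. Pkm, the pyruvate kinase, had 325, 244 and 259.9 CPM in treated tumours, against 1331, 1649 and 1467 CPM in untreated tumours (-2.43 ± 0.22, adjusted p = 2.58e-09), and Ldha, which makes lactate, had 35.5, 49.9 and 38.0 CPM in treated tumours, against 226, 210.2 and 236 CPM in untreated tumours (-2.44 ± 0.17, adjusted p = 1.82e-12). Both fell by more than 4-fold on means. The angiogenic factor Vegfa was lower (-0.79 ± 0.14, adjusted p = 8.48e-05). Ndrg1, known as a hypoxia-induced gene, was the one called higher, with 83.5, 40.9 and 49.4 CPM in treated tumours, against 9.64, 16.3 and 18.2 CPM in untreated tumours (1.97 ± 0.47, adjusted p = 0.00308). In the ATF4 list 11 of 20 genes were called lower, or 7 without treated replicate 1, and none higher. Among them the serine synthesis enzyme Psat1 had 9.94, 3.76 and 6.00 CPM in treated tumours, against 84.3, 85.7 and 106 CPM in untreated tumours (-3.84 ± 0.39, adjusted p = 1.24e-07), and the one-carbon enzyme Mthfd2 had 12.2, 6.89 and 4.86 CPM in treated tumours, against 74.9, 73.4 and 65.0 CPM in untreated tumours (-3.16 ± 0.47, adjusted p = 2.86e-05). Shmt2, which links serine to one-carbon units, was called lower too (-1.77 ± 0.30, adjusted p = 7.31e-05).

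**Figure D4:**
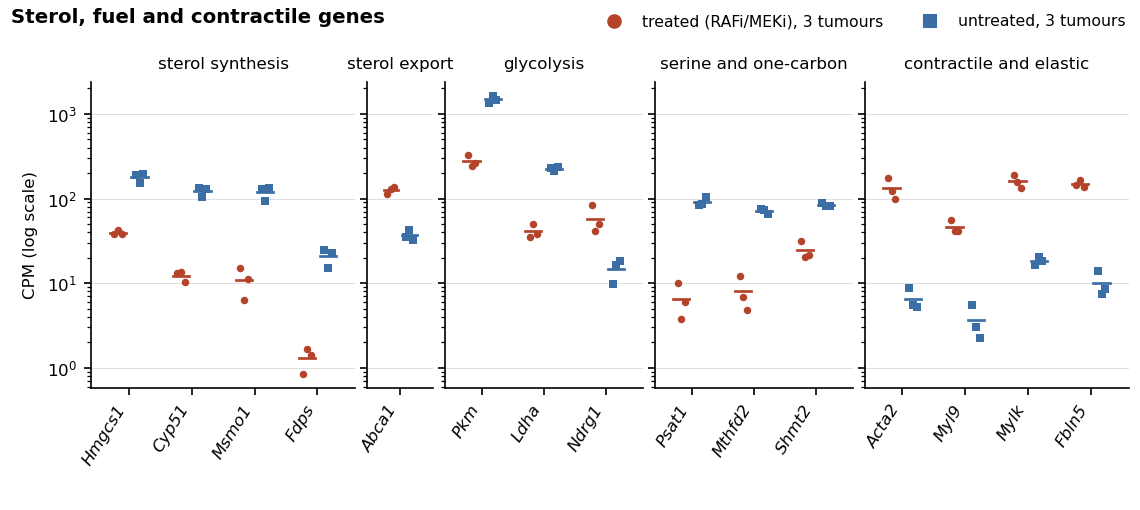
CPM on a log scale (y axis) of sterol synthesis and export, glycolysis, serine and one-carbon, contractile and elastic fibre genes (x axis) in 14559TN tumours. Red circles are the 3 treated tumours, blue squares the 3 untreated tumours, and bars the group means. Abca1, Ndrg1, Acta2, Myl9, Mylk and Fbln5 lie higher in treated tumours and the other genes lower, none with overlap.

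Genes of ribosome production were lower too. Of 29 MYC and ribosome biogenesis genes 21 were called lower, among them the nucleolar genes Ncl (-0.78 ± 0.13, adjusted p = 2.02e-05) and Npm1 (-0.65 ± 0.13, adjusted p = 3.67e-04), and Mxd1, which encodes a competitor of MYC, was called higher (1.13 ± 0.28, adjusted p = 0.00280). Cytosolic ribosomal protein genes were called lower in 34 of 58 cases and higher in none. Their sums were 15995, 14976 and 15608 CPM in treated tumours, against 22836, 26287 and 23325 CPM in untreated tumours, with a median log2 fold change of -0.69. Oxidative phosphorylation genes were called lower in 19 of 35 cases, or 12 without untreated replicate 3 or treated replicate 3, with a median of -0.53. Of 13 heat shock chaperone genes 7 were called lower, Hspa8 (-0.51 ± 0.15, adjusted p = 0.00836) and Hsp90ab1 (-0.64 ± 0.13, adjusted p = 5.02e-04) among them. Of 14 NRF2 targets 8 were called lower, or 5 without untreated replicate 3, treated replicate 2 or treated replicate 3. Of 16 unfolded protein response chaperones 1 was called lower. This count was 0 without untreated replicate 3, treated replicate 1 or treated replicate 3, 2 without untreated replicate 2 or treated replicate 2 or with DESeq2, and 3 with no low-count filter or with only the 2 groups compared.

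Survival and stress genes moved with less unity. Bcl2, which blocks mitochondrial death, had 244, 215 and 234 CPM in treated tumours, against 62.9, 61.5 and 67.1 CPM in untreated tumours (1.86 ± 0.19, adjusted p = 4.51e-09) and was the only one of 14 BCL2 family genes called higher, against 4 called lower, or 2 without treated replicate 1 or treated replicate 3. Bcl2l11 (BIM), a death gene that ERK is known to hold down, had 126, 120.1 and 124 CPM in treated and 105, 131 and 94.3 CPM in untreated tumours and was not called (0.16 ± 0.13). Of 17 p53 targets 7 were called lower, or 4 without treated replicate 3, Cdkn1a among them, and Sesn1 (1.04 ± 0.32, adjusted p = 0.013, and 0.054 without untreated replicate 3) and Fas (1.77 ± 0.50, adjusted p = 0.00736) were called higher. Lysosome genes had a median near 0, and 7 of 30 were called lower. Ctsl (cathepsin L) had 502, 780 and 564 CPM in treated tumours, against 1556, 1616 and 1709 CPM in untreated tumours (-1.40 ± 0.21, adjusted p = 7.64e-06), while the glycogen-degrading Gaa was higher (1.22 ± 0.22, adjusted p = 5.56e-05).

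Several of the 12 largest rises and falls belong to no list. Ccdc3, a secreted protein gene, had 52.8, 62.7 and 51.4 CPM in treated tumours, against 0.254, 1.54 and 1.01 CPM in untreated tumours (5.90 ± 0.56, adjusted p = 2.27e-09), the largest rise under the naming rule. Fibin had 124, 168 and 138 CPM in treated tumours, against 6.09, 7.99 and 4.79 CPM in untreated tumours (4.52 ± 0.31, adjusted p = 1.82e-12), and the matrix-associated Abi3bp had 22.4, 19.8 and 25.4 CPM in treated and 1.27, 0.922 and 1.51 CPM in untreated tumours (4.14 ± 0.53, adjusted p = 4.22e-07). The imprinted noncoding RNA H19 had 167, 108 and 197 CPM in treated tumours, against 11.9, 6.15 and 10.1 CPM in untreated tumours (4.04 ± 0.78, adjusted p = 5.26e-04). On the other side, Atp2a3, a calcium pump of the endoplasmic reticulum, had 3.41, 0.836 and 0.857 CPM in treated tumours, against 58.4, 49.2 and 67.1 CPM in untreated tumours (-5.13 ± 0.84, adjusted p = 1.24e-04), and its log2 fold change was -6.04 without treated replicate 1. Trbc2, a T cell receptor constant segment, had 1.70, 0.627 and 2.00 CPM in treated tumours, against 39.8, 33.2 and 43.9 CPM in untreated tumours (-4.81 ± 0.45, adjusted p = 9.99e-09). Of the 14 lymphocyte markers 3 had no count in the 6 libraries, the T cell receptor complex gene Cd3g among them. The 14 together were higher by value in treated tumours, at 2.62 ± 1.18 CPM, against 0.830 ± 0.511 CPM in untreated tumours (SD, n = 3 each). Also among the falls were the potassium channel Kcnk3 (-4.12 ± 0.70, adjusted p = 1.12e-04), the chromatin protein Hmga1 (-4.34 ± 0.88, adjusted p = 7.69e-04, and -5.62 without treated replicate 2) and the glycolate oxidase Hao1 (-3.95 ± 0.41, adjusted p = 1.04e-08).

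Few genes differed in response between 14559TN and 13TN, and many between 14559TN and 14559R or 2646TN. Minus 13TN, 59 of 13286 genes were called (0.444%), 35 with a higher (0.263%) and 24 with a lower (0.181%) log2 change in 14559TN. Minus 14559R, 1596 were called (12%), 542 higher (4.08%) and 1054 lower (7.93%), a split of 712 and 835 with library totals alone. Minus 2646TN, 1867 were called (14.1%), 689 higher (5.19%) and 1178 lower (8.87%), a split of 891 and 1005 with library totals alone. These clones share no libraries with 14559TN. Of the 1647 genes called higher in 14559TN, 995 were called higher in 13TN too, which is 60.4% of them and 55.0% of the 1809 called higher in 13TN (13.6% of genes tested). Of the 2124 called lower, 1502 were shared, which is 70.7% of them and 65.0% of the 2311 called lower in 13TN (17.4%). In a panel of 50 genes of these pathways, 49 were tested, of which 12 were called higher and 19 lower in 14559TN. None of the 49 was called as different from 13TN by edgeR, although 13 passed 0.05 before adjustment and 3 were called by DESeq2 (Bcl2l11, Slc2a1 and Spry4). By edgeR 4 differed towards higher and 18 towards lower from 14559R, and 9 towards higher and 12 towards lower from 2646TN.

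Mitosis and replication genes differed in response from 14559R and 2646TN. The response differed, towards lower, in 38 of 42 mitosis genes against 14559R and in 41 of 42 against 2646TN. The list medians were -3.00 in 14559TN, -3.78 in 13TN, -0.33 in 14559R and 0.07 in 2646TN. Top2a averaged 55.4 ± 22.6 CPM in treated and 287 ± 37.3 CPM in untreated 14559TN tumours (SD, n = 3 each), and 365 ± 14.9 CPM in treated and 479 ± 91.0 CPM in untreated 14559R tumours. The difference between the responses was -1.99 ± 0.34, adjusted p = 3.16e-04. In 2646TN it averaged 502 ± 166 CPM in treated and 451 ± 86.0 CPM in untreated tumours, and the difference was -2.53 ± 0.34, adjusted p = 1.30e-05. DNA replication genes differed, again towards lower, in 22 of 35 cases against 14559R and in 30 of 35 against 2646TN.

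Interferon and sterol lists differed in part. Against 14559R, 9 of 30 type I interferon-induced genes and 9 of 15 GTPases had a higher response in 14559TN, and against 2646TN 11 and 3 had. The median of the type I list was 2.98 in 14559TN, 2.01 in 13TN, 0.89 in 14559R and 1.23 in 2646TN. For sterol synthesis 13 of 19 genes had a lower response in 14559TN than in 14559R, and 7 than in 2646TN. Glycolysis and hypoxia genes differed from 14559R in 11 of 23 cases, all lower in 14559TN, while against 2646TN 2 differed in each direction. Pkm, for instance, averaged 276 ± 42.7 CPM in treated and 1482 ± 159 CPM in untreated 14559TN tumours and 1142 ± 396 CPM in treated and 1872 ± 236 CPM in untreated 2646TN tumours (SD, n = 3 each).

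**Figure D5:**
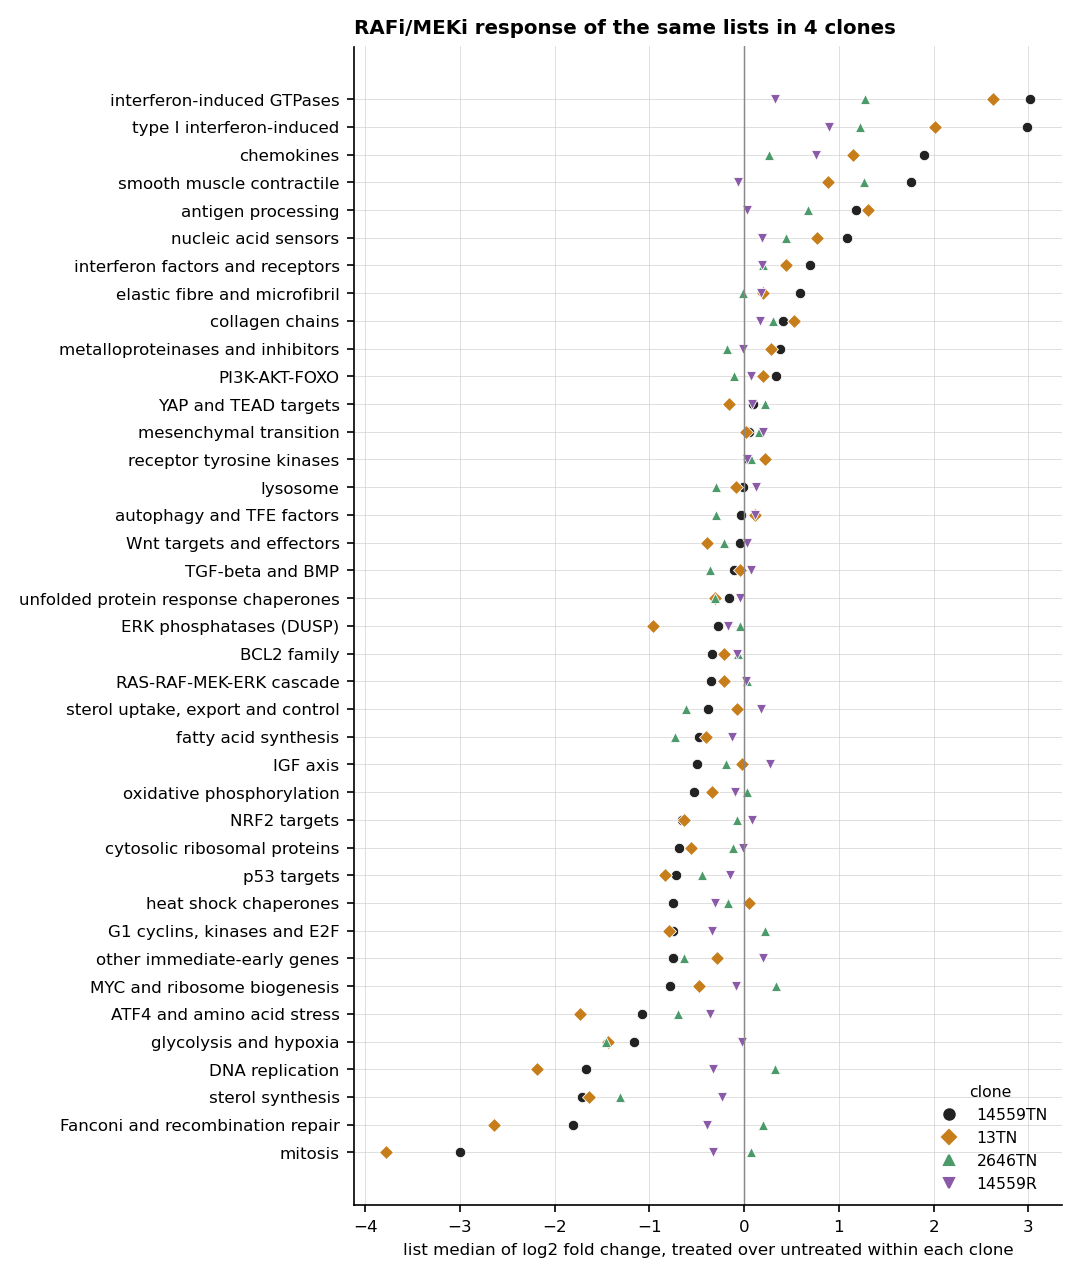
Median over list members of the log2 fold change, treated over untreated within each clone (x axis), for 39 pathway lists (y axis, in the order of the 14559TN medians). Each symbol is 1 clone with 3 tumours per group: black circles 14559TN, orange diamonds 13TN, green triangles 2646TN and purple inverted triangles 14559R. In mitosis, DNA replication and repair 14559TN lies near 13TN and far below the other 2 clones, and in sterol synthesis and glycolysis 2646TN lies near it.

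The few genes that did separate 14559TN from 13TN were chosen after their values were seen. Slc16a1, a lactate transporter, averaged 7.17 ± 1.52 CPM in treated and 37.7 ± 3.15 CPM in untreated 14559TN tumours, and 71.3 ± 1.83 CPM in treated and 83.9 ± 8.80 CPM in untreated 13TN tumours (SD, n = 3 each), a difference in response of -2.14 ± 0.26, adjusted p = 2.47e-05. Il33, an alarm cytokine, averaged 33.3 ± 1.29 CPM in treated and 13.3 ± 6.91 CPM in untreated 14559TN tumours, and 47.2 ± 12.9 CPM in treated and 229.8 ± 60.3 CPM in untreated 13TN tumours, so that its direction was opposite between the clones (3.63 ± 0.60, adjusted p = 0.00533). Igfbp3, which binds IGF1, averaged 120.4 ± 18.7 CPM in treated and 217 ± 15.8 CPM in untreated 14559TN tumours, and 8.80 ± 1.89 CPM in treated and 112 ± 17.6 CPM in untreated 13TN tumours (2.81 ± 0.36, adjusted p = 1.81e-04). Grem1, a BMP antagonist, averaged 177 ± 51.8 CPM in treated and 349 ± 30.8 CPM in untreated 14559TN tumours, and 17.4 ± 5.49 CPM in treated and 219 ± 96.2 CPM in untreated 13TN tumours (2.67 ± 0.39, adjusted p = 0.00173). Both were lower in treated tumours of either clone by mean, and the log2 change was smaller in 14559TN. The count of 59 was 29 to 64 when single libraries of the 4 groups were left out, 150 with DESeq2 and 332 with no filter on low counts.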

How the data were processed

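Messenger RNA of GFP-positive cells sorted from dissociated tumours was sequenced from transcript 3′ ends (Lexogen QuantSeq), per the labels' protocols. Reads were aligned with STAR 2.6.0c to GRCm38 and counted per gene with featureCounts 1.6.2, per the submitters' processing notes and the file headers, and the headers record paired, forward-stranded counting. The deposited values are raw counts per gene under Ensembl identifiers, not normalized by the authors. A 3′ count depends little on transcript length. GENCODE vM21 gave a symbol for 54495 of the 54532 identifiers, and promoter sequences are RefSeq's on GRCm38.p6.

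All 30 libraries entered 1 edgeR 4.0.16 fit (R 4.3.3) with a mean for each of the 10 groups: filterByExpr, TMM factors, robust dispersions and quasi-likelihood F tests. This left 13286 genes and 20 residual degrees of freedom, with a biological coefficient of variation of 18.2%. Standard errors were obtained by dividing the size of the log2 change by the root of its F statistic. Differences between responses are contrasts of that fit. The labels call the libraries separate tumours without saying whether these came from separate mice, and p-values measure the spread between these tumours only. In a simulated 14559TN response of 13056 genes, the test recovered 66 of 100 genes changed by 1 on the log2 scale and 93 of 100 changed by 2. Of the 167 genes it called, 8 were unchanged ones. The changed genes were drawn only from those with more than a few CPM on average, so recovery at low counts was not tested.

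The gene lists and members were chosen with earlier results of these data known. Named genes are a panel of 50, the 12 largest rises and falls with at least 20 CPM in the higher group and no overlap, the 4 called members of each list with the highest CPM, and members called against the majority of their list. Mcm6 and the genes that separate 14559TN from 13TN were chosen after their values were seen, as were other members named as examples. Alternatives were median-of-ratios factors, library totals, no filter, DESeq2 1.42.0, only the 2 groups compared, and leaving out each library.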

Additional observations from a re-analysis of the deposited data

Results flagged for a closer look

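The response of 14559TN differed from that of 3 other clones by a test of the difference itself, an interaction contrast in edgeR's quasi-likelihood fit with Benjamini-Hochberg adjustment. Against 13TN 59 genes were called, against 14559R 1596 and against 2646TN 1867. Each clone label stands for 1 isolate, so the spread between clones was not tested.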

How the results depend on the processing

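The count of genes called in the 14559TN response stayed within 1.5 times its value under each alternative run and was 2762 to 3262 when single libraries were left out. With library totals alone it was 1971 higher and 1812 lower. The count against 13TN depended more on the processing: it was 332 with no low-count filter, 150 with DESeq2, and 29 to 64 when single libraries were left out, and the cause was not tested. The counts against 14559R and 2646TN stayed within 1.5 times. With library totals alone their splits were 712 higher and 835 lower against 14559R, and 891 higher and 1005 lower against 2646TN, beside the 542 and 1054, and 689 and 1178, of the TMM fit. Of 265 tested named genes, 247 were called. Over 11 alternatives 2660 of their values kept direction and side of the threshold, 229 in 62 genes lost the call and 15 gained one. Dusp6 and Sox10 changed sign while not called. The log2 fold change of Dusp6 was 0.011 with median-of-ratios factors, 0.046 with library totals and 0.005 with DESeq2. When libraries were left out singly, it ran between -0.414 and 0.379 for Dusp6 and between -1.953 and 1.904 for Sox10. The scalings moved the median of all genes by at most 0.066 (log2). Medians of the Sprouty and Spred, Wnt, lysosome, autophagy, dissociation stress and pericyte lists changed sign under some alternative. No paired analysis was possible because the replicate numbers only name the tumours in accession order. At 3287743 to 4620473 counts per library, depth limits genes of a few CPM, for which small changes may not have been detectable.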

Other observations

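Erythroid RNA, a trace of blood, was lower by value in treated tumours. The 6 erythroid markers summed to 48.8, 25.9 and 39.4 CPM in treated tumours, against 115.5, 61.2 and 109.4 CPM in untreated tumours, and none of the 4 tested was called by edgeR, with 1 at an unadjusted p under 0.05 and none called by DESeq2. Haemoglobin copies share sequence, so their single values are uncertain. The endothelial list was lower as well, at 181.7, 193.4 and 133.7 CPM in treated tumours, against 345.4, 273.5 and 321.7 CPM in untreated tumours, but nearly all of it was Plvap. Of the 8 tested members Plvap was called lower and none higher, and the median log2 fold change was -0.575. In 4 of the 8 all treated libraries lay below all untreated ones, and in 1 above, beside 24.5% and 22.9% of genes. Tek was the 1 member of the 12 without a count, and Cdh5 stayed below 3 CPM in each of the 6 libraries.

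Fast skeletal muscle troponin Tnnt3 was called higher, with 19.3, 9.40 and 18.3 CPM in treated tumours, against 5.33, 6.45 and 5.04 CPM in untreated tumours. Of the 12 skeletal muscle markers 4 had no count in the 6 libraries, Myh1, Myh4 and Myog among them. The 12 summed to 26.7, 15.2 and 27.7 CPM in treated tumours, against 6.60, 13.8 and 6.81 CPM in untreated tumours. Of the 2 tested, Tnnt3 alone was called.

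The share of counts from ribosomal protein genes was 1.74% to 1.86% in treated tumours and 2.54% to 2.91% in untreated tumours. The share of the nuclear noncoding RNA Malat1 was 1.76% to 2.40% in treated tumours and 1.21% to 1.33% in untreated tumours. Neither pair of ranges overlapped. The same held in 13TN, where the ribosomal protein share was 1.89% to 1.91% in treated tumours and 2.61% to 2.88% in untreated tumours, and the Malat1 share 2.71% to 3.50% in treated tumours and 1.22% to 1.32% in untreated tumours. In 14559R both shares overlapped between treated and untreated tumours. In 2646TN the Malat1 shares overlapped and the ribosomal protein shares, 2.35% to 2.89% in treated tumours and 2.96% to 3.19% in untreated tumours, did not.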
